A study of Mus musculus with 7 samples.

Results

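The genes described here are Wdfy1, Nnt, Ide, Gm42031, Fgfbp3 and Entpd4, proposed as a set of genes whose level or sequence marks differences between substrains of C57BL/6 mice. They were taken by symbol, and 6 of 6 had a row among the 55228 rows of the count table. The choice used the contrast studied here: the genes were picked because libraries of mice labelled Fhl2 KO stood apart from WT libraries. Their differences between the groups are therefore given as a description, with no test. Reads per gene had been counted in primary granulosa cells, the somatic cells around the oocyte, from ovaries of untreated mice. There were 4 libraries of genotype WT and 3 of genotype Fhl2 KO, and the strain of all 7 is labelled C57BL/6J. FHL2 is a LIM-domain adaptor protein. The sources used here do not give how the Fhl2 allele was made, the ages of the mice, the substrain the allele came from or whether each library was a separate animal. Any difference in mouse background between the groups thus cannot be told apart from the Fhl2 allele, and p-values measure only the spread between these samples, which may be technical.

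C57BL/6 mice have been kept as separate substrains for many generations, and the colonies have collected deletions, duplications and point mutations. The best known is a deletion inside Nnt in C57BL/6J mice, which C57BL/6N mice lack. Nnt codes for nicotinamide nucleotide transhydrogenase, an inner mitochondrial membrane enzyme that makes NADPH for peroxide removal. Ide and Fgfbp3 lie near each other and are known from a copy-number gain that varies among C57BL/6J mice. Wdfy1 and Entpd4 have been listed among genes expressed differently between substrains. For Gm42031, a predicted non-coding gene, no such background is stated here. A read count per gene shows neither copy number nor which exons the reads cover.

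The libraries held 38855596 to 50514556 counts each. Levels are given as CPM, read counts relative to the size of the library, scaled by the trimmed mean of M-values (TMM). Fhl2 itself stood at 101.0 to 114.2 CPM in the WT libraries and at 47.9 to 66.8 CPM in the KO libraries, so its reads remained in each KO library. Over the 15798 genes tested, 29.0% passed the edgeR quasi-likelihood test at adjusted p 0.05. In 17.7% of them every KO library lay below every WT library. The granulosa cell markers Foxl2, Amh, Fshr, Inha, Inhba, Cyp19a1, Nr5a1, Esr2, Nr5a2 and Amhr2 had a summed level of 4318 to 4998 CPM in WT and 3859 to 4712 CPM in KO (9 tested, 3 higher, 4 lower). Cyp19a1 was at 0 in every WT library and at 0.132 to 0.362 CPM in KO, and was not tested. Inhba (2752 to 3549 CPM in WT, 1606 to 2699 in KO) and Inha (979.4 to 1101 and 1567 to 1803 CPM) had the highest levels in the sum. Markers of other cell types also differed. The summed level of 6 stroma markers was 363.7 to 421.4 CPM in WT and 117.6 to 163.0 in KO (4 of 6 tested lower). Most of that sum came from the collagen genes Col1a1, Col1a2 and Col3a1. Pdgfra was also lower, while Dcn (mean of 0.517 CPM in WT and 0.691 in KO) and Lum did not pass. Both were at most 0.874 CPM in any library. The summed level of 7 surface epithelium markers was 109.4 to 125.6 and 138.7 to 181.3 CPM (4 of 7 higher). For 6 theca markers it was 331.0 to 364.9 and 829.1 to 961.5 CPM (2 of 3 tested higher, 1 lower), and for 6 lung markers 0.128 to 0.418 and 1.16 to 25.3 CPM (2 of 3 tested higher). The theca sum followed Cyp11a1, at 272.3 to 306.4 CPM in WT and 776.2 to 909.4 in KO. Star was also higher and Ptch1 lower, while Cyp17a1 and Insl3 were at most 0.0659 CPM in any library. The theca sum therefore does not show the amount of theca cells. None of 5 tested leukocyte markers and none of 4 tested endothelial markers passed, and 1 of 5 tested oocyte markers was lower. Their part in the values below was not tested. In bulk samples, fewer cells of a type and less RNA per cell cannot be told apart.

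The sequence before the RefSeq start of Fgfbp3 is shown because Fgfbp3 had the tightest KO levels of the set and this start lies 16 bases from the one in GENCODE. The stretch just after the RefSeq start was, however, not found whole in a GENCODE transcript of Fgfbp3. RefSeq entries were found for 3 of the 6 genes, Ide, Gm42031 and Fgfbp3. The 250 bases lie at chr19:36919600-36919849 (GRCm38.p6, minus strand). Capitals mark matches to TATAAA and CCAAT, searched on both strands.
Fgfbp3: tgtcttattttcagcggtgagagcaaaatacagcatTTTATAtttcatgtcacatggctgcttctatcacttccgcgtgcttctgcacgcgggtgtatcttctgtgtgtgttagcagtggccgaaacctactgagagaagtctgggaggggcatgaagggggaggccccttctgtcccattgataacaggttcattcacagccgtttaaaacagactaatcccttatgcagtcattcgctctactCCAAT
Each of these motifs was found 1 time, the first of them on the opposite strand. The GENCODE gene starts inside the window, so the last 16 bases, which hold CCAAT, lie within that gene. Of all windows of this length in the RefSeq table, 12.4% hold TATAAA and 33.8% hold CCAAT. The motif GGGCGG, present in 32.7% of windows, was not found here. The cAMP response motif TGACGTCA (1.55% of windows) and the E-box CACGTG (6.02%) were not found either. The matches did not overlap each other. The window held 8 CpG dinucleotides and 47.2% G and C.

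Gm42031 showed the widest gap of the set. It is annotated as a lincRNA, ENSMUSG00000110386.1, on chromosome 8, minus strand, at 85125872 to 85132289 (mm10, GENCODE M21). Counts in WT libraries 1 to 4 were 271, 283, 335 and 266, against 0, 5 and 8 in KO libraries 1 to 3. Every WT library thus had at least 266 reads where the KO libraries had 8 at most. In CPM, WT stood at 6.47 ± 0.730 (SD, n = 4) and KO at 0, 0.107 and 0.176 in libraries 1 to 3. Against a floor of 3 counts, or 0.0765 CPM, KO library 1 was at least 84.6-fold lower than the WT mean. The 13 KO counts together correspond to 1.53% of the WT rate, with an exact Poisson 95% interval of 0.816% to 2.62% that covers counting error only. The fitted log2 difference was -6.00, but with so few reads it depends on the prior count of the fit.

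The transcript of Gm42031 is in part repeated elsewhere. Of the 100-base words of its longest transcript, 23.2% also occur in transcripts of other genes on either strand. The share of all its words that occurs in Gm43305 is 19.9%, the highest for any gene. Gm43305 is a non-coding gene of chromosome 14. The sources used here do not give how the counting treated reads shared between genes. Gm43305, chosen after its values were seen, stood at 6.48 to 7.69 CPM in WT and at 3.82 to 5.16 CPM in KO. It was lower in KO (log2 difference -0.61, SE 0.148, edgeR adjusted p = 0.00697), with a KO mean of 65.4% of the WT level. The gene that shares most words with Gm42031 thus also lay lower in KO, by far less.

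Wdfy1 had the next widest gap. Its product is an endosomal protein with a FYVE domain, which binds phosphatidylinositol 3-phosphate, and it helps recruit the adaptor TRIF to Toll-like receptors 3 and 4. The gene, ENSMUSG00000073643.11, lies on chromosome 1, minus strand, at 79702262 to 79776143. Its counts were 761, 1025, 1142 and 1020 across WT libraries 1 to 4, and 109, 167 and 128 across KO libraries 1 to 3. As levels these were 19.7, 20.4, 24.4 and 23.4 CPM in WT and 2.78, 3.56 and 2.81 CPM in KO. The lowest WT library stood 5.52-fold above the highest KO library. The KO mean was 13.9% of the WT mean, so reads of Wdfy1 were few but present in each KO library. None of its transcript's 100-base words occurs in another gene. Its 5′ end overlaps Mrpl44, a mitochondrial ribosomal protein gene on the opposite strand, by 126 bases. Mrpl44 did not move with it, at 17.1 to 20.6 CPM in WT and 21.2 to 23.5 CPM in KO (log2 difference 0.24, SE 0.101, edgeR adjusted p = 0.0873). That gene passed without KO library 1 (0.0208), with voom quality weights (limma adjusted p = 0.0318) and with library totals alone (edgeR adjusted p = 0.0472).

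Fgfbp3 codes for a secreted protein that binds fibroblast growth factors and carries them away from the matrix. It is ENSMUSG00000047632.10 on chromosome 19, minus strand, from 36917550 to 36919615. Its levels were 23.4, 20.96, 23.03 and 24.6 CPM in WT libraries 1 to 4 and 9.23, 9.10 and 9.55 CPM in KO libraries 1 to 3. The KO libraries lay within a narrow band, with a coefficient of variation of 2.507% against a median of 13.7% for all genes tested. Genes chosen for clean separation tend to have a small spread within groups, and the median takes in genes with few reads. Nothing is therefore read from this comparison. The KO mean was 40.4% of WT, and the fitted log2 difference was -1.31.

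Ide codes for the insulin-degrading enzyme, a zinc metalloprotease that cuts insulin and other small peptides. It is ENSMUSG00000056999.15, on the same strand of chromosome 19 from 37268743 to 37337852, and starts 418.2 kb from Fgfbp3. The WT libraries stood at 186.7, 176.1, 201.9 and 188.4 CPM and the KO libraries at 123.7, 117.4 and 111.8 CPM. No KO library reached the lowest WT library, but the gap was the smallest among the 5 genes whose groups did not overlap, at 1.42-fold. The KO mean was 62.5% of WT, against 40.4% for Fgfbp3, so the neighbouring pair did not lie lower by the same factor. The ratio of Ide to Fgfbp3 CPM within a library was 7.67 to 8.76 in WT and 11.7 to 13.4 in KO. The pseudogene Rpl10-ps6, 642 bases inside Ide on the same strand, stood at 65.1 to 71.6 CPM in WT and 78.2 to 94.7 CPM in KO. It was higher (log2 difference 0.38, SE 0.0928, edgeR adjusted p = 0.00715), a call lost without KO library 3 (0.0546), for KO library 1 alone (0.317) and under the length and GC correction given further on (0.123).

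Nnt has 2 overlapping gene models in GENCODE and 1 row in the table. The longer model, ENSMUSG00000025453.18, covers chromosome 13 from 119335448 to 119408997 on the minus strand. Nnt counts were 2219, 3073, 2790 and 2586 across WT libraries 1 to 4 and 1210, 1589 and 1440 across KO libraries 1 to 3. In CPM the WT libraries lay at 57.3 to 61.2 and the KO libraries at 30.9, 33.9 and 31.6, with no overlap. The WT spread was small, 59.35 ± 1.615 CPM (SD, n = 4), a coefficient of variation of 2.72% against a median of 9.02% for all genes tested. As for Fgfbp3, a small spread is favoured by the choice of the genes, so nothing is read from it. The KO mean was 54.1% of WT. All 7 libraries thus carried at least 1210 Nnt reads, also those of the WT group labelled C57BL/6J.

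Entpd4 did not separate the groups. Its product is a nucleoside diphosphatase of the Golgi and lysosome. The gene lies on the plus strand of chromosome 14 from 69337174 to 69367270 (ENSMUSG00000095463.8). The counts were 0, 1, 3 and 5 across WT libraries 1 to 4, and 3, 1 and 4 across KO libraries 1 to 3. The groups overlapped, most of these counts are at or under the floor of 3, and the gene did not pass the low-count filter, so no fold change is given. Every 100-base word of its longest transcript (3490 words) also occurs in Entpd4b, a copy that starts 218.2 kb away. Reads within that transcript can therefore not be assigned to 1 of the 2 genes by sequence. Entpd4b had 147, 7, 20 and 189 counts in WT and 495, 36 and 76 counts in KO. These values differed widely within each group, and the groups overlapped. It did not pass (log2 difference 1.22, SE 1.42, edgeR adjusted p = 0.582). The pseudogene Gm21451, which lies between the 2 copies, was highest in the same library, with 186 counts in KO library 1 against 32 to 67 in the 6 other libraries.

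**Figure D1:**
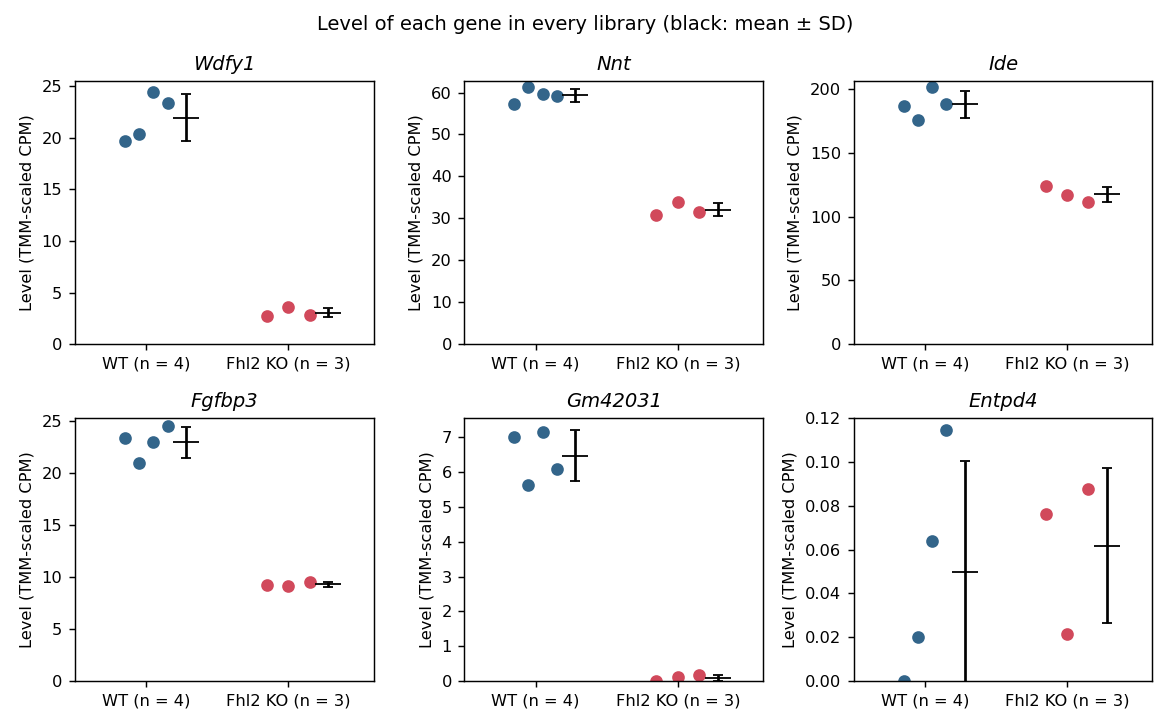
Level of the 6 genes in each library, in TMM-scaled CPM on linear axes from 0; points are libraries and black marks are mean ± SD of 4 WT and 3 Fhl2 KO libraries. For 5 genes no KO library reaches the lowest WT library, whereas for Entpd4 the groups overlap near 0.

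**Figure D2:**
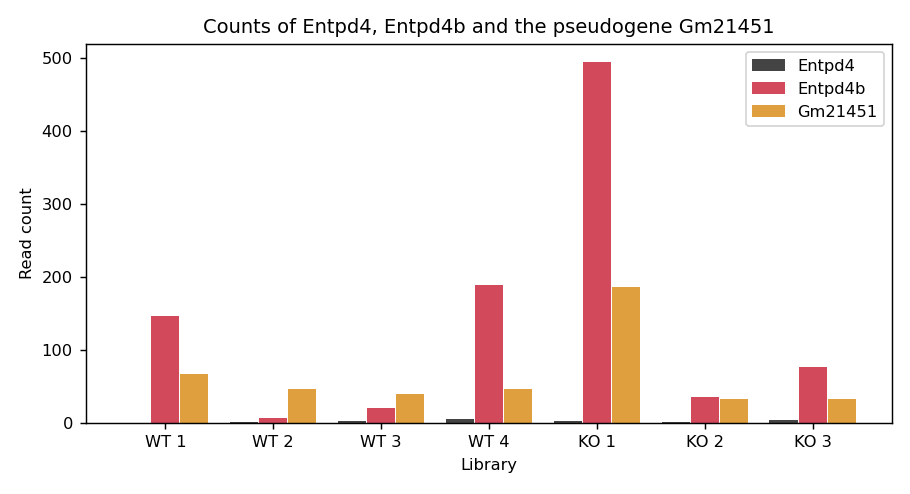
Read counts of Entpd4, Entpd4b and the pseudogene Gm21451 in each of the 7 libraries, as bars from 0. Entpd4 has at most 5 counts, and Entpd4b runs from 7 counts in WT library 2 to 495 in KO library 1.

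In all, 5 of the 6 genes had every KO library below every WT library. The share over all genes is 17.7%, and nothing is read from this count, since the genes were chosen for it. Levels of different genes were compared per kilobase of annotated exon. In WT the order was Ide (25.1 ± 1.41 CPM per kb, SD, n = 4), Fgfbp3 (12.97 ± 0.849), Nnt (8.43 ± 0.229), Gm42031 (3.43 ± 0.387), Wdfy1 (3.39 ± 0.353) and Entpd4 (0.00615 ± 0.00630). Gm42031 and Wdfy1 did not differ beyond their spread there. In KO the order was Ide (15.7 ± 0.794 CPM per kb, SD, n = 3), Fgfbp3 (5.25 ± 0.131), Nnt (4.56 ± 0.223), Wdfy1 (0.470 ± 0.0681), Gm42031 (0.0499 ± 0.0470) and Entpd4 (0.00766 ± 0.00441). Each neighbouring pair in that order was apart by more than the SDs, except the last, whose ranges met near the floor. The place of Entpd4 in both orders may not reflect its level. Reads within its longest transcript cannot be told by sequence from those of Entpd4b, and how such reads were counted is not given. The rows still held unlike counts, with 3 for Entpd4 and 495 for Entpd4b in KO library 1.

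The groups also differed in how levels depend on gene length. Per doubling of exon length, log2 CPM moved relative to the mean library by 0.0463 to 0.0723 in WT, and by -7.70e-04, -0.140 and -0.109 in KO libraries 1 to 3. Wdfy1, Nnt and Ide are long, at the 75.6, 79.1 and 81.8 percentiles of exon length among annotated genes tested, and Gm42031 and Fgfbp3 are short, at 19.8 and 18.2. A correction for length and GC content moved the log2 difference from -2.84 to -2.65 for Wdfy1, from -0.89 to -0.68 for Nnt and from -0.68 to -0.46 for Ide. It moved Fgfbp3 the other way, from -1.31 to -1.48, and Gm42031 from -6.00 to -6.15. The 5 differences kept their sign, which is favoured by the choice of genes that separate the groups, so nothing is read from it.

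The KO libraries were also compared one by one. Among 2675 other genes that passed the test and differed by at least 0.5 (log2) between WT and the mean of KO libraries 2 and 3, the difference of KO library 1 was a median of 0.455 of the difference of the other KO libraries, with quartiles of 0.290 and 0.700. The same share was 0.845 for Ide, 1.01 for Fgfbp3, 1.07 for Wdfy1, 1.10 for Nnt and 1.39 for Gm42031, where the last depends on a count of 0. For Ide, KO library 1 was thus nearer to WT than the other KO libraries, and for the other 4 genes it was as far or farther. Genes chosen because every KO library stood apart from WT tend to have a high share by that choice, so nothing is read from their place among the 2675 genes. The comparison was chosen after the values were seen and has no test.

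**Figure D3:**
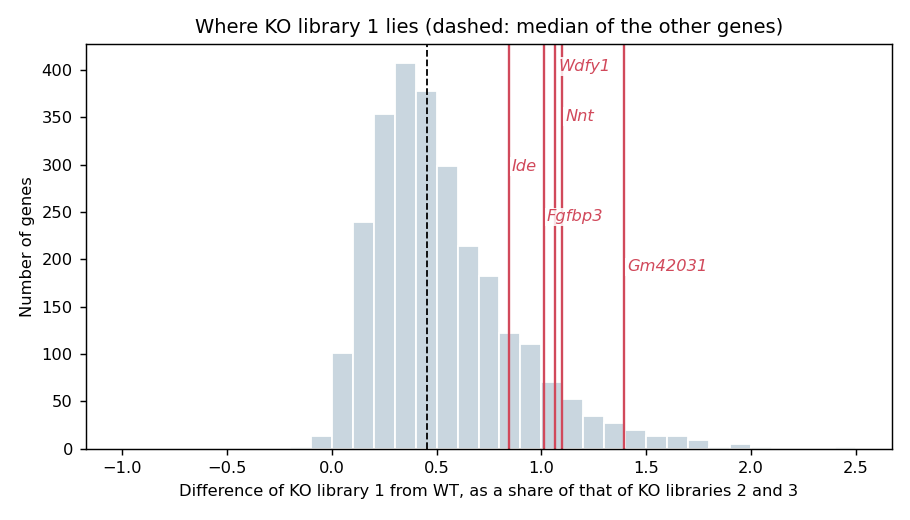
Histogram of the difference of KO library 1 from the WT mean, as a share of the difference of KO libraries 2 and 3 (log2 CPM), over 2675 genes that passed the test; red lines are the 5 genes and the dashed line is the median of 0.455. The 5 genes lie between 0.845 and 1.39.

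Position was not used in choosing the genes, so their neighbours were examined with the test. Within 1 Mb of the 6 starts, 29 of 101 tested genes passed, 18 higher and 11 lower, or 28.7% against 29.0% of all genes tested. The median log2 difference was 0.06, against -1.84e-04 over all genes. The share near these genes was thus close to that of the whole table. It was 30.3% for a window of 0.5 Mb, 31.5% for 2 Mb and 32.5% for 5 Mb. Leaving out KO library 3 gave 15 calls, and setting KO library 1 by itself against WT gave 7.

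Near Wdfy1, 2 of 9 genes passed, both lower. Ap1s3, a subunit of an adaptor complex of clathrin coats, had 1.63 to 2.35 CPM in WT and 0.659 to 1.19 CPM in KO (log2 difference -1.14, SE 0.270, edgeR adjusted p = 0.00611). Serpine2, an inhibitor of serine proteases abundant in granulosa cells, had 1118 to 1243 CPM in WT and 908.7 to 978.1 CPM in KO (-0.34, SE 0.0870, 0.00976). The call of Ap1s3 was lost for KO library 1 alone (0.0614). That of Serpine2 was lost without WT library 1 (0.0504), for KO library 1 alone (0.0567) and after the length and GC correction (0.525). Neither gene differed by as much as Wdfy1, which, unlike its neighbours, was chosen for separating the groups. Wdfy1 lies 36.6 Mb from Fhl2 on the same chromosome. Of 205 tested genes between Fhl2 and Wdfy1, 71 passed (34.6%), 34 higher and 37 lower, with a median of -0.02. Over the rest of chromosome 1, 222 of 733 passed (30.3%), with a median of -0.09.

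Around Ide, 5 of 12 genes passed (1 higher, 4 lower), and around Fgfbp3 4 of 11 (2 and 2); these windows share genes. Kif11, a spindle motor, fell from 44.0 to 59.3 CPM in WT to 27.6 to 30.2 CPM in KO (log2 difference -0.76, SE 0.111, edgeR adjusted p = 1.96e-04). Cep55, a protein of the midbody, fell by 0.60 (SE 0.113), and Btaf1, a regulator of the TATA-binding protein, fell by 0.62 (SE 0.118, edgeR adjusted p = 0.00163), lost for KO library 1 alone (0.0663). Of the 3 tested genes that start between Fgfbp3 and Ide, Btaf1 was lower, Rpl10-ps6 was higher and Cpeb3 did not pass (-0.45, SE 0.191, 0.0878). After the length and GC correction Btaf1 alone of the 3 passed (0.0112).

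Around Nnt, 1 of 12 genes passed. This was Hmgcs1, an early enzyme of cholesterol synthesis, at 101.5 ± 9.57 CPM in WT (SD, n = 4) and 81.1 ± 12.2 in KO (SD, n = 3; log2 difference -0.32, edgeR adjusted p = 0.0320). Its call did not hold with any of WT libraries 1, 3 and 4 and KO libraries 1 and 3 left out (0.0807 to 0.138) and with library totals alone (0.0585). Tmem267 (0.46, adjusted p = 0.112 with edgeR) and 3110070M22Rik (0.98, 0.146) did not pass, although Tmem267 did without WT library 4 (0.0446) and without KO library 1 (0.0276).

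Around Gm42031, in a region dense in genes, 17 of 48 passed, 14 higher and 3 lower, against 2128 higher and 2460 lower over all genes tested. The median log2 difference of the 48 genes was 0.14, and after the length and GC correction it was 0.07, with 13 calls. Fbxw9, an F-box protein, rose by 0.65 (SE 0.112), Prdx2, a peroxide-removing peroxiredoxin, rose by 0.53 (SE 0.108), and Junb, an AP-1 factor, rose by 0.64 (SE 0.131), all as log2 differences (edgeR adjusted p of 7.97e-04, 0.00248 and 0.00373). For KO library 1 alone the edgeR adjusted p was 0.0596, 0.195 and 0.195. The tested gene nearest to Gm42031, named after its values were seen, was Zfp791, at 1.51 to 2.04 CPM in WT and 0.966 to 1.58 CPM in KO (-0.53, SE 0.250, 0.118). Its groups overlapped. Around Entpd4, 3 of 18 genes passed. Loxl2, an enzyme that cross-links collagen, fell by 0.79 (SE 0.116, edgeR adjusted p = 2.24e-04), and Bin3 and Pdlim2 rose by 0.43 (SE 0.104) and 0.54 (SE 0.132), with the call of Bin3 lost without KO library 3 (0.0587) and both lost for KO library 1 alone (0.467 and 0.298).

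**Figure D4:**
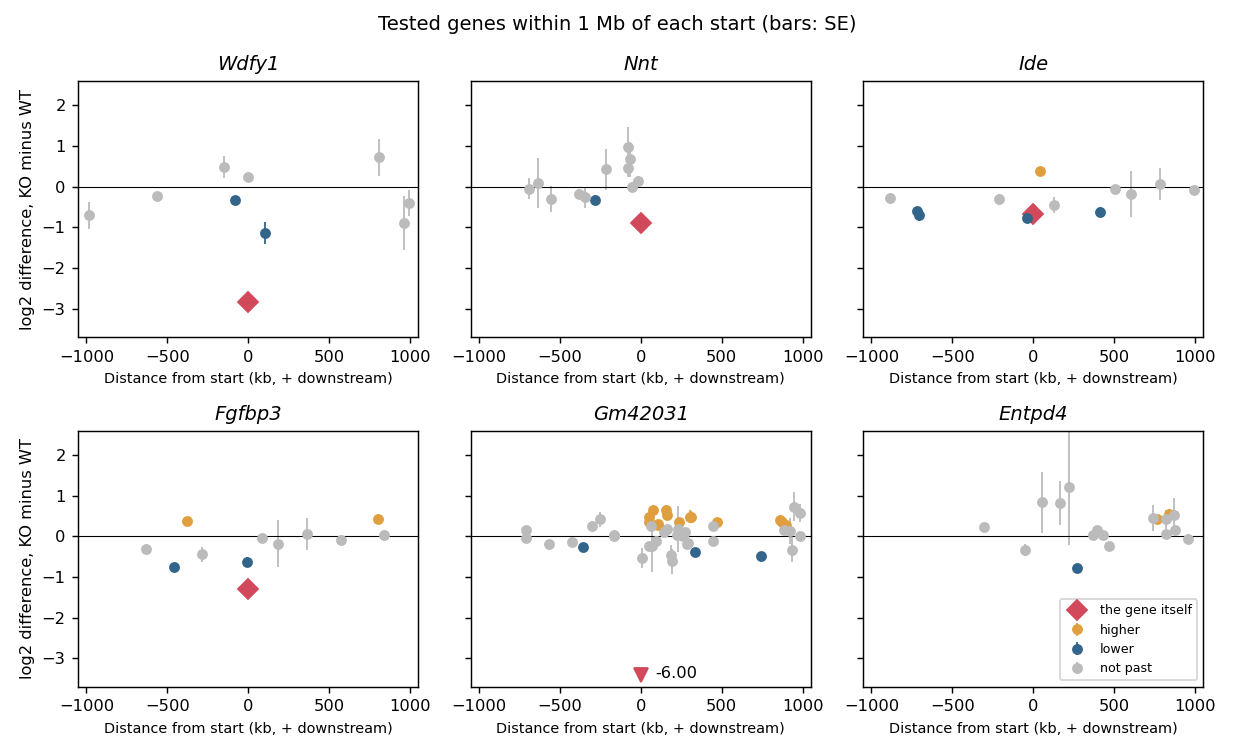
Log2 difference (KO minus WT, bars are SE) of tested genes within 1 Mb of each start against distance in kb, positive downstream; yellow and blue points passed the test as higher and lower, grey did not, and red marks the gene itself (Gm42031, at -6.00, is drawn at the lower edge). Of 101 neighbours 29 passed, and no neighbour lies as low as Wdfy1 or Gm42031. Those genes were chosen for separating the groups and the neighbours were not, so nothing is read from that difference.

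A list of 9 other genes known to differ between C57BL/6 substrains included Crb1, Cyfip2, Nlrp12, Mmrn1 and Dock2. Of the 9 genes 5 had enough reads to test. The edgeR test called 0 of them, against 29.0% of all genes tested, and 1, Cyfip2, lay under an unadjusted p of 0.05. With 5 genes tested, some of them near the floor, nothing is read from this count. The call count was 1 with voom quality weights and 0 with DESeq2. Cyfip2, an actin regulator with a known point mutation in C57BL/6N, stood at 66.0 to 72.1 CPM in WT and at 68.4, 44.0 and 55.7 CPM in KO libraries 1 to 3 (log2 difference -0.29, SE 0.119, edgeR adjusted p = 0.0797). It passed without KO library 1 (0.00124), with no low-count filter (0.0319) and with voom quality weights (limma adjusted p = 0.00655). Mmrn1 (0.214 ± 0.0474 CPM in WT, 0.327 ± 0.283 in KO) and Dock2 (0.302 ± 0.176 and 0.180 ± 0.208 CPM) were near the floor. Most of these genes carry known differences in sequence, which a count does not show.

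Genes that work beside the 6 were followed in lists chosen by function. Over the 7 lists, the substrain list included, 30 of 98 tested genes passed (30.6%, against 29.0% of all genes). That count was 51 without KO library 1, 13 without KO library 3, 47 with voom quality weights and 5 for KO library 1 alone.

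For Nnt, the list held 17 genes of mitochondrial NADPH supply and peroxide defence. Of these 4 were higher, 1 was lower and 12 did not pass (median 0.08, corrected 0.05). The share called was 29.4%, against 29.0% of all genes tested. Me2, a mitochondrial malic enzyme, stood at 183.8 to 199.2 CPM in WT and 358.4 to 399.8 CPM in KO (log2 difference 0.98, SE 0.0846, edgeR adjusted p = 7.90e-07). Gpx1, a glutathione peroxidase, stood at 179.0 to 198.4 and 285.9 to 355.4 CPM (0.83, SE 0.0944, 1.52e-05). The member that fell was Aldh1l2, which makes NADPH from a folate derivative in mitochondria, at 43.2 to 47.6 CPM in WT and 14.2 to 25.5 CPM in KO (-1.15, SE 0.156, 3.31e-04). The groups did not overlap for any of these 3 genes, which were named for the smallest p. Over all 15798 genes tested, the groups did not overlap for 5397, counting both directions. The list's 5 calls became 9 without KO library 1, 3 without KO library 3, 3 for KO library 1 alone, 9 with voom quality weights and 8 after the length and GC correction.

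For Fgfbp3, 16 of 24 FGF ligands, receptors and binding proteins could be tested, and 7 were lower, 1 was higher and 8 did not pass (median -0.30, corrected -0.29). Fgfr2, an FGF receptor, went from 75.04 to 79.9 CPM in WT to 37.6 to 47.6 CPM in KO (log2 difference -0.87, SE 0.0973, edgeR adjusted p = 1.24e-05). Fgf16, a secreted ligand, went from 3.49 to 4.44 CPM to 1.603 to 2.40 CPM (-1.05, SE 0.192, 0.00130), and Fgfr1 fell by 0.44 (SE 0.0928, 0.00319). The calls of Fgf16 and Fgfr1 were lost for KO library 1 alone (0.0907 and 0.0786) and that of Fgfr1 after the length and GC correction (0.0644). The member that was higher was the receptor Fgfr4 at a low level (0.257 CPM in WT, 0.718 in KO), named after its value was seen. The list's 8 calls became 5 without WT library 3, 4 without KO library 3, 4 under a 10 CPM filter and 1 for KO library 1 alone. Of 6 stroma markers 4 lay lower in the same KO libraries, as given above, and any link to the FGF genes was not tested.

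For Ide, 11 of 12 genes of insulin signalling and of its protease family could be tested. Of these 4 were lower, 1 was higher and 6 did not pass (median -0.23, corrected 0.12). The share called was 45.5%, against 29.0% of all genes tested. Pitrm1, a mitochondrial peptidase of the same M16 family, fell by 0.41 (SE 0.0953, edgeR adjusted p = 0.00541) and Irs1, an insulin receptor substrate, by 0.59 (SE 0.122, 0.00269). Igf2r, which clears IGF2 and sorts lysosomal enzymes, fell by 0.74 (SE 0.170, 0.0105), a call lost without KO library 3 (0.0603). For KO library 1 alone these edgeR adjusted p were 0.156, 0.180 and 0.0982. The list's 5 calls became 10 without KO library 1, 2 without KO library 3, 0 for KO library 1 alone and 9 with voom quality weights.

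For Wdfy1, 26 genes of the endosomal phosphatidylinositol 3-phosphate system were tested. Of these 4 were lower, 2 were higher and 20 did not pass (median -0.14, corrected -0.01). The share called was 23.1%, against 29.0% of all genes tested. Eea1, the early endosome tether, fell by 0.61 (SE 0.136, edgeR adjusted p = 0.00506). Wdfy3, a large autophagy adaptor, fell by 0.60 (SE 0.162, 0.0194) and Rab5b, an early endosome GTPase, rose by 0.27 (SE 0.0879, 0.0310). Leaving out WT library 3 (0.0520) or KO library 3 (0.102) ended the call of Wdfy3. Leaving out any of WT libraries 1, 3 and 4 and KO libraries 2 and 3 ended that of Rab5b (0.0563 to 0.0994), as did dropping the low-count filter (0.0532). For KO library 1 alone, none of the 3 genes passed (0.181 to 0.319). The list's 6 calls became 2, 1 and 3 without WT library 1, 3 or 4, and 14, 3 and 1 without KO library 1, 2 or 3. They became 1 for KO library 1 alone and 11 with voom quality weights. Of 17 TLR3 and TLR4 signalling genes, 3 were higher, 3 were lower and 11 did not pass (median 0.14, corrected 0.10), a share called of 35.3%. Nfkb1 fell by 0.57 (SE 0.127, edgeR adjusted p = 0.00445), Traf3 by 0.68 (SE 0.150, 0.00502) and Ripk1 by 0.46 (SE 0.121, 0.0109), all of them signal carriers below the receptors. The calls of Nfkb1 and Ripk1 were lost after the length and GC correction (0.0719 and 0.0853), that of Ripk1 without KO library 3 (0.0843), and all 3 for KO library 1 alone (0.238 to 0.547). The list's 6 calls became 10 without KO library 1, 0 for KO library 1 alone, and 3 without KO library 3 or after the length and GC correction.

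For Entpd4, 6 of 9 nucleotidases of its family and the related Cant1 could be tested, Entpd4b among them. The edgeR test called 0, against 29.0% of all genes tested, with 0 also at an unadjusted p under 0.05. DESeq2 and limma with voom quality weights also called 0. Entpd5, an endoplasmic reticulum enzyme, stood at 21.99 to 25.1 CPM in WT and 22.2 to 23.5 CPM in KO. Entpd7 (log2 difference -0.17, SE 0.106, edgeR adjusted p = 0.253), the surface enzyme Entpd1 (-0.17, SE 0.122, 0.320) and Cant1 (-0.09, SE 0.106, 0.580) did not pass either. Of these the groups of Entpd7 did not overlap, as was so for 5397 of all 15798 genes tested, counting both directions.

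**Figure D5:**
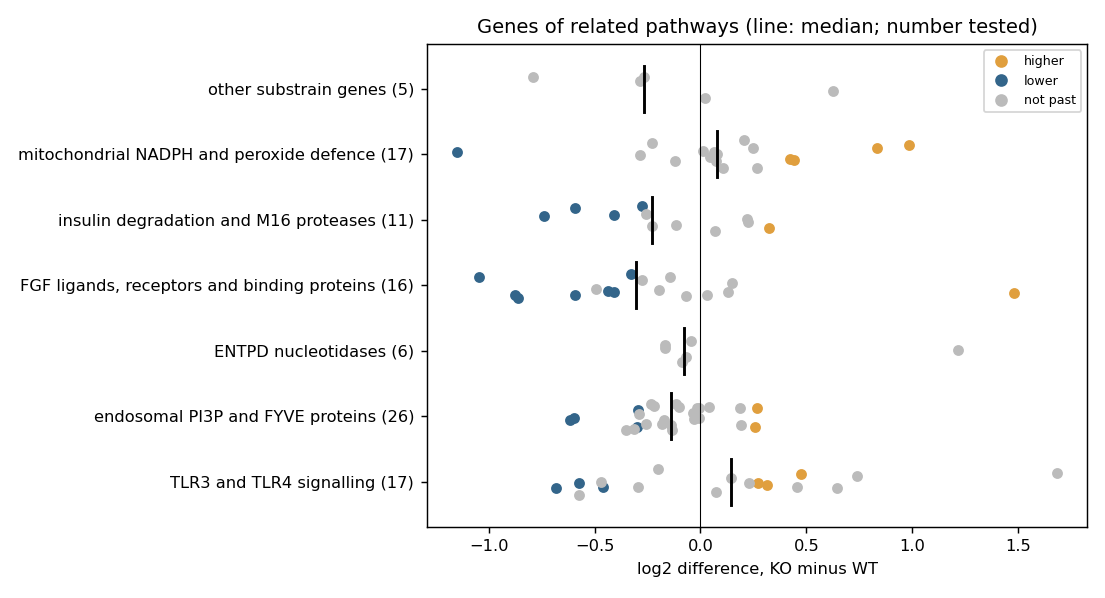
Log2 difference (KO minus WT) of each tested gene in 7 lists, with the number tested in brackets; black lines are medians, yellow and blue points passed the test as higher and lower, and grey points did not. In all 30 of 98 genes passed (30.6%, against 29.0% of all genes tested), and no gene of the substrain and ENTPD lists did.

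The genes whose log2 CPM followed the set most closely over the 7 libraries were ranked by Pearson correlation among genes of at least 1 CPM, as a description with no p. All libraries share the 2 groups, so any gene that separates the groups cleanly ranks high. For Wdfy1 these were Itgav (r = 0.997), Hmga2 (0.994) and Dgkb (0.992), and for Nnt Itgav (0.996), Pif1 (0.990) and Hmga2 (0.990). For Ide they were Prex2 (0.999), Pdlim5 (0.997) and Amot (0.996), for Fgfbp3 Mdk (0.994), Syt14 (0.994) and Nid1 (0.993), and for Gm42031 Gna14 (0.992), Mdk (0.990) and Acta2 (0.989). Among the 5 genes themselves r ran from 0.938 for Ide and Gm42031 to 0.997 for Wdfy1 and Nnt. Itgav, an integrin chain, stood at 205.8 ± 3.26 CPM in WT (SD, n = 4) and 105.8 ± 4.58 in KO (SD, n = 3), and Hmga2, a chromatin protein, at 27.2 ± 1.40 and 10.3 ± 0.668 CPM. Within the 4 WT libraries the members did not share 1 pattern: r ran from -0.68 for Nnt and Gm42031 to 0.81 for Ide and Gm42031. The log2 difference of Syt14 moved from -0.35 to 0.00127 under the length and GC correction.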

How the data were processed

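The deposited table held whole-number read counts per gene symbol, not normalized by the authors, 1 column per library. Per the submitters' processing notes, which give no roles, build mm10 was used with DESeq2 1.28.1, Cufflinks 2.2.1, featureCounts 1.6.4, HISAT2 2.2.1, SAMtools and fastp. Per the labels' protocols, RNA was extracted with TRIzol and libraries used a stranded mRNA kit. The sources used here do not give the annotation release, strand setting or treatment of shared reads, so a gene and an overlapping gene may not be separated. Of 55228 rows, 25188 had 0 counts in all libraries.

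Groups came from the sample titles. The test was edgeR 4.0.16 under R 4.3.3 (minimum count of 10 in filterByExpr, TMM scaling, robust glmQLFit, glmQLFTest, genotype as the only term), adjusted by Benjamini-Hochberg over 15798 genes. Log2 differences are KO minus WT, and SEs come from the F statistic. A call is an adjusted p under 0.05. Positions and exon lengths came from GENCODE M21 (mm10) and promoter windows from RefSeq (GRCm38.p6). The correction fitted each library's trend of log2 CPM (prior count 2) on length and GC content by natural splines with 4 degrees of freedom. Other settings were DESeq2 1.42.0, limma 3.58.1 (voom quality weights), other scalings and filters, the replicate number as a block (WT and KO libraries 1 to 3, so without WT library 4), and left-out libraries. On simulated data for this comparison with 15562 genes tested, 98.5% of 67 genes changed 2-fold and 83.6% of 67 changed 1.5-fold were recovered. The simulation gave every gene and library the same dispersion and changed only genes with ample counts. It checks that the code runs rightly and does not measure recovery in the real libraries or for genes with few reads.

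The members, lists and rules were chosen with earlier results of these data known. Named genes were the members, Fhl2, up to 3 with the smallest p from each list and from the neighbours of each member, and the 3 most alike in pattern. Same-numbered libraries did not deviate together (r of -0.03 to 0.03 over genes), so numbers were not treated as pairs. Libraries of a group differed by more than sampling noise (chi-square per gene of at least 10.4). The values of 1 gene of the substrain list are not reported here.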

Additional observations from a re-analysis of the deposited data

Results flagged for a closer look

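Among 57 genes screened over the 4 WT libraries, 3 had a library far from the other three; chance flags about 1 in 20 such groups. They were Kif11, at 59.3 CPM in WT library 3 against 44.0 to 46.0 in the others, Wdfy3, at 94.7 CPM in WT library 1, and 3110070M22Rik, at 0.128 CPM in WT library 3. None of Wdfy1, Nnt, Ide, Gm42031, Fgfbp3 and Entpd4 was among them. The groups of 3 KO libraries were not screened.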

How the results depend on the processing

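The 5 genes of the set that could be fitted kept the sign of their difference in each of the settings that gave a value. Nothing is read from this, since they were chosen for separation of the groups. With every KO library below every WT library, leaving libraries out could hardly change the sign. Moves beyond the spread between replicates came with the length and GC correction (log2 difference of Wdfy1 -2.65, Nnt -0.68, Ide -0.46, Fgfbp3 -1.48) and with KO library 1 alone against WT (Nnt -0.95, Gm42031 -11.14, the latter set by a count of 0). With 1 library left out, they ran from -2.96 to -2.76 for Wdfy1, -0.92 to -0.84 for Nnt, -0.70 to -0.64 for Ide, -6.74 to -5.48 for Gm42031 and -1.33 to -1.27 for Fgfbp3. The 4588 calls over all genes became 2960 with 6 libraries unblocked and 781 for KO library 1 alone, and ran from 1657 to 6740 with a library left out; they were 2994 without WT library 3, 2960 without WT library 4 and 1657 without KO library 3. Calls in the pathway lists (30) were 47 with voom quality weights and 5 for KO library 1 alone, and 13 to 51 with a library left out. Calls among neighbours (29) were 7 for KO library 1 alone and 15 to 43 with a library left out. Blocking on the replicate number leaves out WT library 4; it gave 3301 calls over all genes, 22 in the lists and 20 among neighbours, against 2960, 23 and 22 for the same 6 libraries unblocked. It called 1 ENTPD gene, and Wdfy1 stood at -2.82 and Fgfbp3 at -1.27; the numbers gave no sign of pairing, since 2 of 6 libraries correlated best with their own number. Of 49 named genes outside the set, 27 changed side of the threshold in at least 1 setting, and Syt14, lower in KO at -0.35 (edgeR adjusted p = 0.0139), stood at 0.00127 after the length and GC correction. The causes were not tested, apart from the fewer samples in left-out settings. Gm42031 in KO and Entpd4 lie near the floor of 3 counts, and Entpd4 also shares all 100-base words of its longest transcript with Entpd4b.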

Other observations

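A search whose limits were set after the values of Gm42031 were seen, so that Gm42031 meets it by construction, asked for genes with at least 50 counts in every library of 1 group, each at least 5 times the count of every library of the other. No other gene with lower counts in KO met it. With higher counts in KO there were 2, the glutathione S-transferase Gsta2 and Akr1c18, which breaks progesterone down. Wdfy1 missed the search narrowly on raw counts, with 761 in its lowest WT library and 167 in its highest KO library.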
